A study of Mus musculus with 9 samples.

Results

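The endoplasmic reticulum (ER) is where a cell folds the proteins that it will secrete or place in its membranes, and the 42 genes described here encode its chaperones, its disulfide and proline-isomerising enzymes, the channel that lets new proteins in, the sensors of misfolding and the machinery that removes failed products. The members were chosen by name, with earlier results of these data known. Each was looked up in the symbol column of the deposited expression table. Of the 42, 41 were found among 53715 gene IDs. Selenos was not found under that symbol, although its gene ID is listed as Vimp, and it is reported apart from the counts. A gene was tested where at least 3 libraries reached 1 TPM (a transcript abundance per length, scaled to the same sum in each library), which 39 members did. Ero1lb and Eif2ak3 fell short of this minimum and are described by their levels alone.

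The libraries came from primary myoblasts, the muscle precursor cells, of the mouse strain C57BL/10ScSn-Dmdmdx/J at passage 1. This strain carries the mdx mutation of Dmd, which encodes dystrophin, so all samples share it and none is wild type. Cells were given glycine, the simplest amino acid, at 0.2 mM (3 libraries, the series named Lib1) or at 0.8 mM (6 libraries, Lib2). The library series and the glycine level therefore cannot be told apart, and the labels do not say whether libraries of 1 level came from separate cultures or animals, so p-values measure only the spread between these libraries, which may be technical. The sources used here give neither the age nor the number of the animals.

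Proteins enter the ER through the Sec61 channel, meet chaperones such as BiP (Hspa5) and calreticulin (Calr), and gain disulfide bonds through protein disulfide isomerases. When unfolded proteins collect there, the sensors IRE1 (Ern1), PERK (Eif2ak3) and ATF6 start the unfolded-protein response: IRE1 splices Xbp1 mRNA, ATF6 is cut to release a transcription factor, and PERK slows translation while allowing Atf4 to be made. Products that cannot be folded are moved back to the cytosol and degraded, a route called ER-associated degradation. In muscle a specialised form of the ER, the sarcoplasmic reticulum, also stores calcium.

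Promoter sequences are shown first because members that carry an element of this response did not all move the same way. The ER stress response element (ERSE) reads CCAAT, then 9 bases of any kind, then CCACG, and its short form (ERSE-II) reads ATTGG, then 1 base of any kind, then CCACG. Both were searched on both strands in RefSeq windows of GRCm38.p6, from 250 bases before to 50 after each start. Printed below are the 250 bases before the start of Hspa5 (chr2:34771840-34772089, plus strand), Calr (chr8:84846932-84847181, minus strand), Hsp90b1 (chr10:86705445-86705694, minus strand) and Herpud1 (chr8:94386179-94386428, plus strand), each 5′ to 3′ along its gene. Capitals mark the fixed letters of ERSE in the first 3 and of ERSE-II in Herpud1, and a match on the other strand reads CGTGG before ATTGG.
Hspa5: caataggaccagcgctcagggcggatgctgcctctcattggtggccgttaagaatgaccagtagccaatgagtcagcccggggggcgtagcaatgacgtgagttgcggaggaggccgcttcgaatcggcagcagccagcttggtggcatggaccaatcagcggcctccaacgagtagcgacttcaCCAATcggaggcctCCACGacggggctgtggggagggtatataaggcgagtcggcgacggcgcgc
Calr: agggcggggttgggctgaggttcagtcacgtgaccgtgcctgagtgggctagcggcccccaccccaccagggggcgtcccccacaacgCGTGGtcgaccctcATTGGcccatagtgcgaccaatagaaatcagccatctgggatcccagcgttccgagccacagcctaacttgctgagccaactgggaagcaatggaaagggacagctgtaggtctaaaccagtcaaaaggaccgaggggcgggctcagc
Hsp90b1: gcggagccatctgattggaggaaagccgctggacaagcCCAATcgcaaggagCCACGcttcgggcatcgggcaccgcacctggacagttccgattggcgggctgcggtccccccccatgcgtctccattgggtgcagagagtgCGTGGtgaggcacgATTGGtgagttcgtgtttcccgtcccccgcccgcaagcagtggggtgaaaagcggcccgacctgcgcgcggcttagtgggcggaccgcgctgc
Herpud1: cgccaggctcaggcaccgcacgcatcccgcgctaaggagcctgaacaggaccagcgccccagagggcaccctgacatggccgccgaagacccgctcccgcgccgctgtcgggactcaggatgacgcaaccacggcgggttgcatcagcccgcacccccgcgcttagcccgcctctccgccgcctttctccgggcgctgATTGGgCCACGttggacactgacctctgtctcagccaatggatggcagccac
Hspa5, Calr and Hsp90b1 rose at 0.8 mM glycine and Herpud1 fell, as given below.

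Of 36 members with a window, 10 (27.8%) held ERSE, and 0.119% of all 32851 windows did. The first share counts genes, which had 41 windows, and the second counts windows. The members were chosen by name with this response in mind, so these shares are a description and not a test. The 10 members with ERSE were Hspa5, Calr, Hsp90b1 (2 matches), Canx, Pdia6, Creld2, Dnajc3, Syvn1, Derl3 and Ero1lb. At 0.8 mM 7 of them rose, Canx and Derl3 did not pass the test, and Ero1lb was not tested. Of all 39 tested members 24 rose, and 16.7% of all genes tested did. ERSE-II, in 0.0365% of all windows, was found in Dnajb11, which rose, and in Herpud1, which fell. The core TGACGTGG of the unfolded-protein response element, in 0.676% of windows, was found in Txndc5. The core TGATGNAA of the site that ATF4 binds with a partner, in 3.97% of windows, was found in Herpud1 and Txndc5. None of these motifs overlapped another in these windows. A match is a run of letters and does not show binding, and a window without one says only that the letters are absent there.

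**Figure D1:**
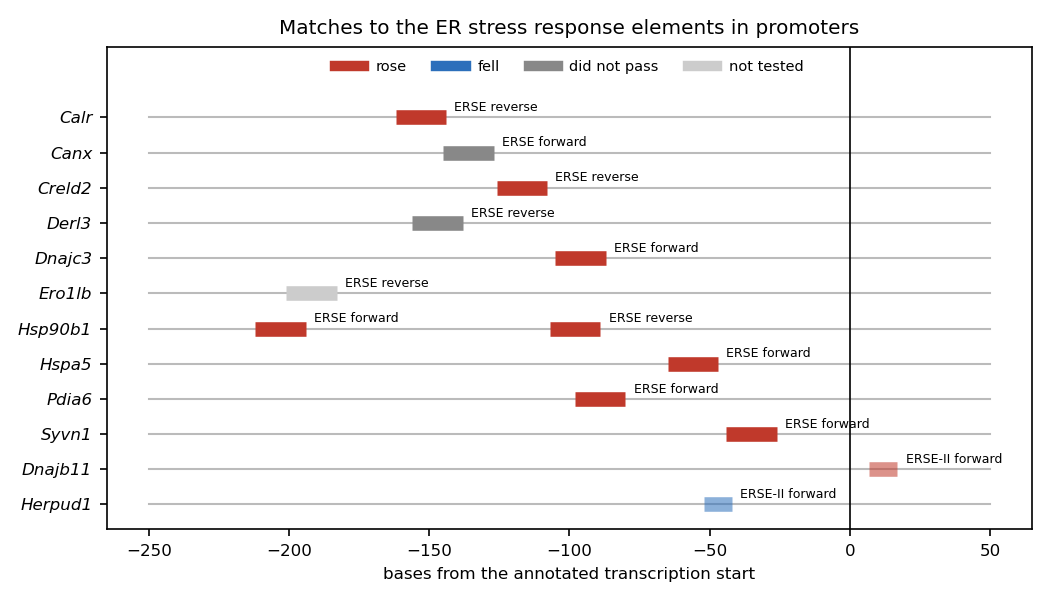
Positions of ERSE and ERSE-II in the promoter windows of the 12 members that hold either; the horizontal axis is the distance in bases from the RefSeq start of each gene, each block is 1 match with its strand, and its colour says whether the gene rose, fell, did not pass or was not tested. ERSE lies within the 250 bases before the start in all 10 genes that hold it.

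Most folding and entry genes were higher at 0.8 mM glycine, while the sensors Ern1 and Atf6 and the degradation genes Herpud1 and Sel1l were lower. By limma's moderated test on log2(TPM + 1), adjusted over all 10049 genes tested, 24 of the 39 tested members rose at 0.8 mM, 4 fell and 11 did not pass an adjusted p of 0.05. Of the tested members 61.5% rose and 10.3% fell. Among all genes tested 16.7% rose and 9.81% fell, so the share of members that fell was near that of all genes. The members' median log2 fold change was 0.60, against 0.06 over all genes tested, and their range ran from -0.95 (Ern1) to 1.78 (Calr). In 23 members every 0.8 mM library was above every 0.2 mM library and in 5 every one was below, which held for 17.6% and 10.6% of all genes (28.2% together). Scaling by median ratios left 23 members rising and 5 falling, and quantile scaling left 22 and 5. Those scalings moved the share of all calls that rose from 63.1% to 52.6% and 50.4%. In bulk RNA, fewer cells of a type and less RNA per cell cannot be told apart. Every fold change given is 0.8 mM over 0.2 mM on the log2(TPM + 1) scale, which understates the change of low genes.

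**Figure D2:**
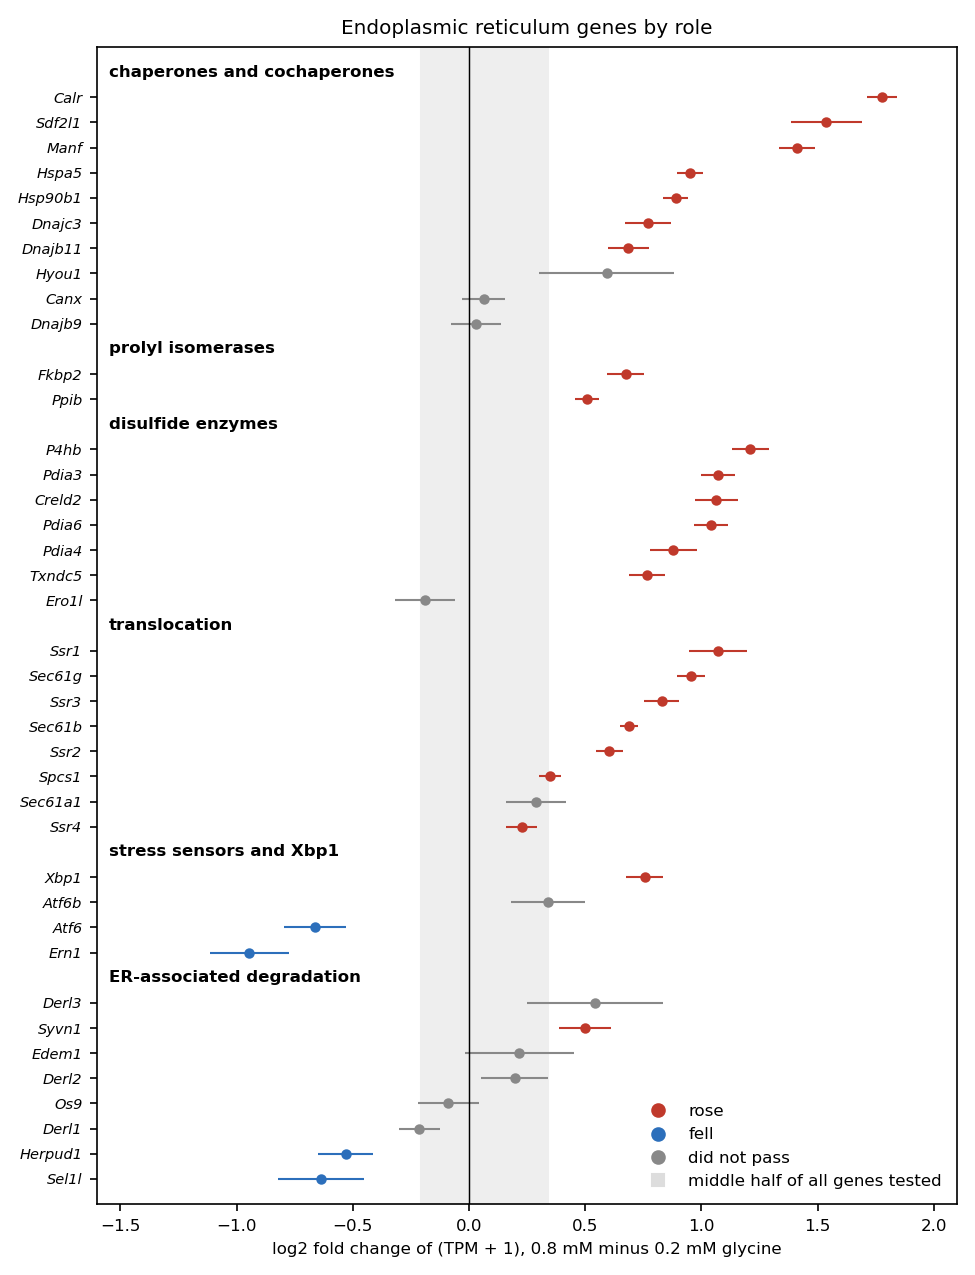
Log2 fold change of each tested member (horizontal axis, log2(TPM + 1), 0.8 minus 0.2 mM) with its standard error as a bar, ordered within role groups; the grey band spans the 25th to 75th percentile of all genes tested. The chaperones, disulfide enzymes and translocation genes lie mostly to the right of 0, while Ern1, Atf6, Sel1l and Herpud1 lie to the left.

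Among the chaperones and their partners 7 of 10 rose, none fell and 3 did not pass, with a median log2 fold change of 0.83. By limma 0 genes among the chaperones, prolyl isomerases, disulfide and translocation genes were lower at an unadjusted p under 0.05. Calr, the calcium-binding lectin chaperone of glycoproteins (chromosome 8, 84841850 to 84846934, GRCm38), stood at 68.2, 66.7 and 73.7 TPM in the 0.2 mM libraries and at 219, 243 and 255 TPM (lowest, median and highest) in the 0.8 mM libraries. Every 0.8 mM library was far above every 0.2 mM one, a log2 fold change of 1.78 ± 0.06 (SE) with an adjusted p of 1.82e-08 by limma. This was the highest fold change of any member.

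Hspa5, BiP, the HSP70 chaperone of the ER lumen that also holds the stress sensors inactive (chromosome 2, 34771970 to 34777547), read 51.9, 55.9 and 52.2 TPM at 0.2 mM. At 0.8 mM it read 99.6, 103 and 110 TPM at the lowest, median and highest. The groups did not overlap, and the SD was 2.25 TPM at 0.2 mM and 3.65 TPM at 0.8 mM around means of 53.3 and 104 TPM. Its log2 fold change was 0.95 ± 0.06 (SE, limma adjusted p 6.03e-07).

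Manf, a small secreted protein retained in the ER that binds BiP (chromosome 9, 106838312 to 106891979), rose from 27.8, 24.7 and 25.6 TPM to 63.7, 70.6 and 78.7 TPM (lowest, median, highest), or by 1.41 ± 0.08 on the log2 scale (SE, limma adjusted p 3.48e-07). Hsp90b1, the ER form of HSP90 (chromosome 10, 86690209 to 86705509), rose from 73.2, 72.1 and 70.2 TPM to 129, 132 and 144 TPM, or by 0.89 ± 0.06 on the log2 scale (SE, limma adjusted p 8.25e-07). Neither gene's groups overlapped. Of the exon bases of Hsp90b1 10.3% lie under a pseudogene on the other strand, 1810014B01Rik, which averaged 4.83 and 1.67 TPM.

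Co-chaperones of BiP rose as well. Sdf2l1, which keeps client proteins soluble with BiP, read 9.13, 6.60 and 4.77 TPM at 0.2 mM and 19.4 to 23.8 TPM at 0.8 mM (log2 fold change 1.54 ± 0.15, SE). Dnajb11, a J-domain partner that brings clients to BiP, averaged 12.8 ± 0.34 and 21.2 ± 1.82 TPM (SD, n = 3 and 6). Dnajc3, another J-domain protein, averaged 3.86 ± 0.21 and 7.31 ± 0.55 TPM. All 3 held their 0.8 mM libraries above their 0.2 mM libraries, with limma adjusted p of 2.83e-05, 1.67e-04 and 2.01e-04.

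The other 3 chaperone genes did not pass. Canx, the membrane-bound relative of Calr, averaged 17.2 ± 1.66 and 18.01 ± 1.296 TPM (SD, limma adjusted p 0.667). Dnajb9, a J-domain protein known as a brake on IRE1, averaged 7.72 ± 0.89 and 7.90 ± 0.67 TPM (limma adjusted p 0.868). Hyou1, a nucleotide exchange factor for BiP, was uneven, with 1.902, 1.897 and 4.55 TPM at 0.2 mM and 2.36 to 6.79 TPM at 0.8 mM (limma adjusted p 0.167). In all 3 the groups overlapped, and the signs of the Canx and Dnajb9 differences turned under other scalings.

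The TPM of Calr was 3.63 to 4.31 times that of Canx in the 0.2 mM libraries and 12.3 to 14.8 times in the 0.8 mM libraries. This pair was chosen after its values were seen and has no test. The promoter windows of both hold ERSE, at positions -162 to -144 from the start in Calr and -145 to -127 in Canx.

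**Figure D3:**
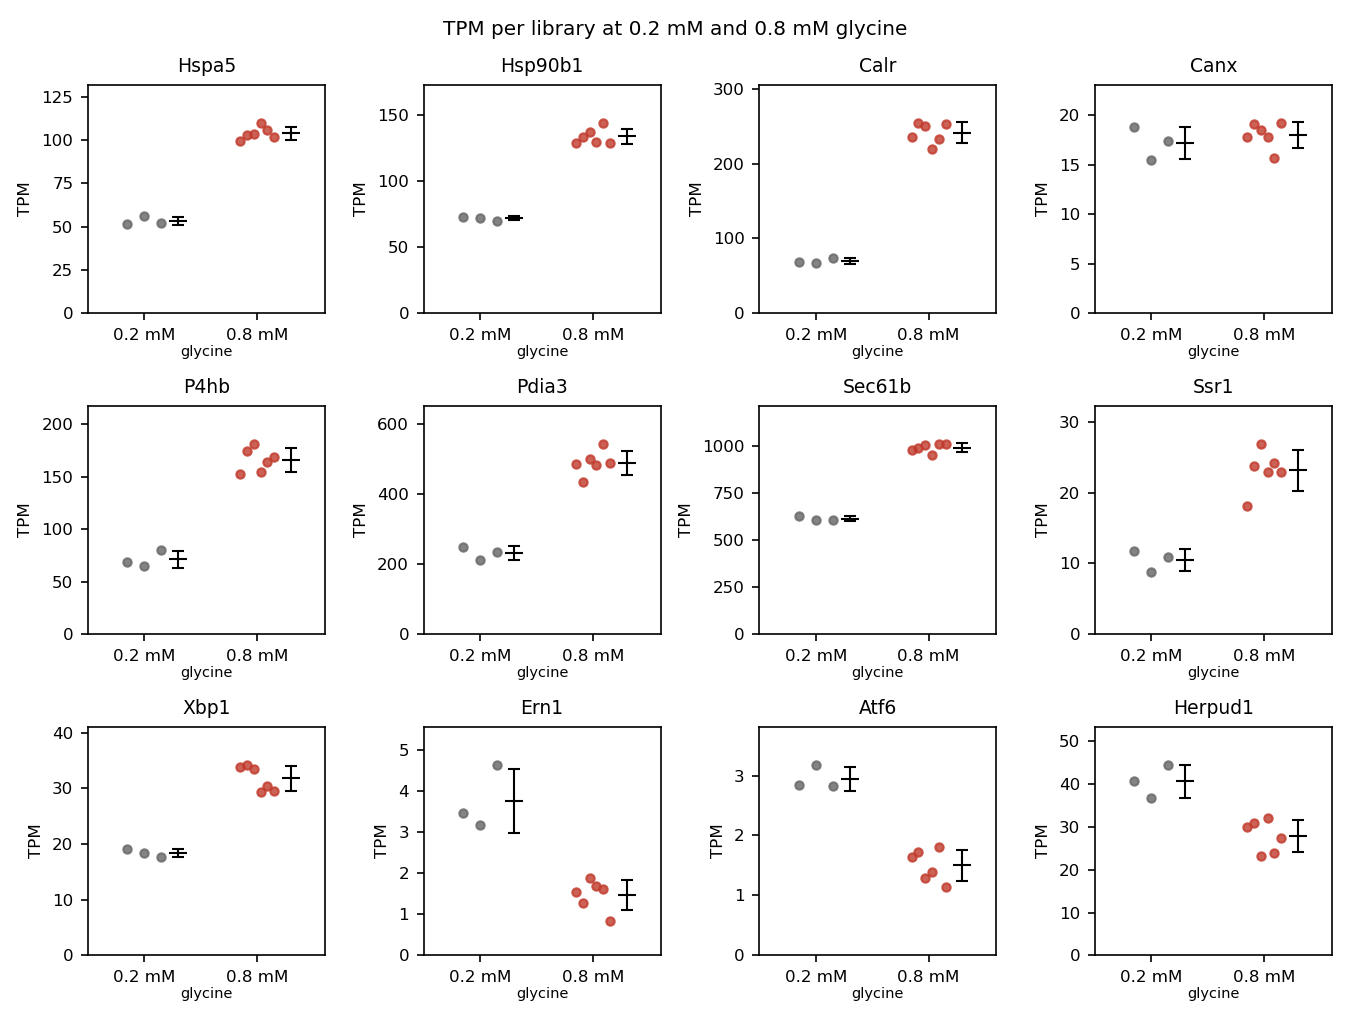
TPM of selected members in each of the 9 libraries (vertical axes, 1 panel a gene), 0.2 mM beside 0.8 mM; points are libraries and the black marks are group means with SD. Hspa5 and Calr lie higher in all 6 libraries at 0.8 mM, and Ern1, Atf6 and Herpud1 lie lower.

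Both prolyl isomerases, which turn proline bonds during folding, rose. Ppib, cyclophilin B, a partner in collagen folding, read 278, 263 and 285 TPM at 0.2 mM and 369.7, 395 and 417 TPM (lowest, median, highest) at 0.8 mM. Fkbp2 read 49.5, 41.7 and 45.4 TPM and 68.3, 72.7 and 78.8 TPM. Neither overlapped between groups, and the log2 fold changes were 0.51 ± 0.05 and 0.67 ± 0.08 (SE, limma adjusted p 2.83e-05 and 9.91e-05). Snx22, on the other strand, overlaps 825 of the 3305 exon bases of Ppib and averaged 0.361 and 0.240 TPM.

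Of the disulfide genes 6 of 7 tested rose and none fell, with a median log2 fold change of 1.04. P4hb, protein disulfide isomerase itself and a subunit of the collagen prolyl hydroxylase (chromosome 11, 120560298 to 120573253), read 68.8, 64.6 and 80.2 TPM at 0.2 mM and 152, 166 and 181 TPM at 0.8 mM. Pdia3, the isomerase that works with Calr and Canx on glycoproteins (chromosome 2, 121413775 to 121438687), read 250.2, 212 and 235 TPM and then 435, 487 and 545 TPM. Their log2 fold changes were 1.21 ± 0.08 and 1.07 ± 0.07 (SE, limma adjusted p 1.39e-06 and 1.46e-06), with no overlap between groups.

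The remaining isomerase genes and Creld2 rose too. Pdia6, known to act with BiP, read 44.5, 40.2 and 45.9 TPM and then 81.4 to 98.9 TPM, a difference of 1.04 ± 0.07 in log2 (SE, limma adjusted p 2.11e-06). Creld2, an EGF-domain protein induced by ER stress, read 13.0, 10.5 and 11.7 TPM and then 23.5 to 28.5 TPM, a difference of 1.07 ± 0.09 in log2 (SE, limma adjusted p 1.12e-05). Pdia4 averaged 13.3 ± 1.86 and 25.2 ± 1.98 TPM and Txndc5 16.4 ± 1.53 and 28.6 ± 0.94 TPM (SD, limma adjusted p 7.84e-05 and 2.86e-05). All 4 kept their groups apart.

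Neither oxidase that supplies disulfide bonds to the isomerases gave a call. Ero1l, the main ER oxidase, read 16.9, 15.9 and 14.5 TPM at 0.2 mM and 11.2, 13.8 and 16.6 TPM at 0.8 mM, with overlapping groups (log2 fold change -0.19 ± 0.13, SE, limma adjusted p 0.328). Ero1lb, its relative best known from the pancreas, was below 1 TPM in all 9 libraries, at 0.443 to 0.910 TPM and 0.360 to 0.825 TPM, and was not tested.

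Of the translocation genes 7 of 8 rose, none fell and Sec61a1 did not pass, with a median log2 fold change of 0.65. Sec61b, the beta subunit of the channel (chromosome 4, 47474658 to 47483242), was the most abundant member, at 632, 609 and 608 TPM and then at 957, 1000.0 and 1015 TPM. Sec61g, the gamma subunit, read 315, 351 and 308 TPM and then 582, 649 and 662 TPM. Groups did not overlap in either, and the log2 fold changes were 0.69 ± 0.04 and 0.96 ± 0.06 (SE, limma adjusted p 2.50e-07 and 1.03e-06).

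Sec61a1, which encodes the pore itself, read 29.9, 35.7 and 43.9 TPM at 0.2 mM and 35.7, 45.7 and 49.97 TPM at 0.8 mM. The groups overlapped, and the log2 fold change of 0.29 ± 0.13 (SE) had a limma adjusted p of 0.129. Without replicate 3 of 0.2 mM it was 0.0384. The difference between Sec61a1 and the other subunits was not tested.

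The translocon-associated proteins, which sit beside the channel, all rose. Ssr3 read 16.8, 17.6 and 15.1 TPM and then 28.0, 30.2 and 31.0 TPM (log2 fold change 0.83 ± 0.08, SE, limma adjusted p 1.38e-05). Ssr2 read 87.8, 84.4 and 82.6 TPM and then 125, 128 and 142 TPM (log2 fold change 0.60 ± 0.06, SE, limma adjusted p 2.08e-05). Neither overlapped between groups, and 12.8% of the exon bases of Ssr2 are shared with a pseudogene listed at 0. Ssr1 averaged 10.5 ± 1.51 and 23.1 ± 2.86 TPM (SD, limma adjusted p 9.31e-05), with a log2 fold change of 1.07. Ssr4 averaged 224 ± 11.9 and 262 ± 17.9 TPM with touching groups (log2 fold change 0.23 ± 0.07, SE, limma adjusted p 0.0268). Its call was lost without replicate 1 or 2 of 0.2 mM (0.0806 and 0.113) and under median-ratio and quantile scaling (0.16 and 0.88).

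Spcs1, a subunit of the signal peptidase that removes the entry signal, read 288, 317 and 289 TPM at 0.2 mM and 369.2, 380.1 and 391 TPM at 0.8 mM. The groups stood apart by more than their SDs of 16.7 and 8.56 TPM (log2 fold change 0.35 ± 0.05, SE, limma adjusted p 2.41e-04), although quantile scaling gave an adjusted p of 0.189. Glt8d1, at 4.40 and 6.40 TPM, overlaps 16.3% of its exon bases.

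Of the 4 tested genes for sensors and Xbp1, 1 rose, 2 fell and 1 did not pass. Ern1, the kinase and RNase IRE1 (chromosome 11, 106394650 to 106487852), read 3.47, 3.17 and 4.65 TPM at 0.2 mM and 0.843, 1.59 and 1.89 TPM at 0.8 mM. Atf6 (chromosome 1, 170704674 to 170867771) read 2.84, 3.18 and 2.82 TPM and then 1.148, 1.52 and 1.81 TPM. Every 0.8 mM library was below every 0.2 mM library for both. Ern1 fell by 0.95 ± 0.17 and Atf6 fell by 0.66 ± 0.13 on the log2 scale (SE, limma adjusted p 0.00184 and 0.00352). With the replicate number as a block, in libraries 1 to 3 of each level, Atf6 lost its call (limma adjusted p 0.0577).

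Atf6b, the paralogue of Atf6, averaged 4.97 ± 0.53 and 6.64 ± 1.47 TPM with overlapping groups (SD, limma adjusted p 0.145). Atf6 stood at 0.569 to 0.640 of the TPM of Atf6b in the 0.2 mM libraries and at 0.138 to 0.290 in the 0.8 mM libraries, a pair chosen after its values were seen. Eif2ak3, the kinase PERK, was low everywhere, at 0.442, 0.229 and 0.633 TPM and then 0.242 to 1.87 TPM, and was not tested. Only its replicates 5 and 6 of 0.8 mM passed 1 TPM.

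Xbp1, the mRNA that IRE1 splices into the form encoding an active factor (chromosome 11, 5520659 to 5525893), rose while Ern1 fell. It read 19.2, 18.4 and 17.7 TPM at 0.2 mM and 29.3, 32.0 and 34.3 TPM at 0.8 mM, with no overlap (log2 fold change 0.76 ± 0.08, SE, limma adjusted p 4.34e-05). TPM per gene does not separate the spliced from the unspliced form.

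The degradation genes were mixed: 1 of 8 rose, 2 fell and 5 did not pass, with a median log2 fold change of 0.05. Herpud1, a membrane organiser of the degradation complex and a classic stress-induced gene (chromosome 8, 94386438 to 94395377), read 40.7, 36.7 and 44.6 TPM at 0.2 mM and 23.3, 28.8 and 32.1 TPM at 0.8 mM. Its groups did not overlap, and it fell by 0.53 ± 0.12 on the log2 scale (SE, limma adjusted p 0.00631). Herpud1 lost its call with the replicate number as a block in libraries 1 to 3 of each level (limma adjusted p 0.0741). This is the gene whose promoter, printed above, holds ERSE-II at positions -52 to -42 from the start.

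The ubiquitin ligase of the route and its partner moved in opposite directions. Syvn1, the ligase HRD1, read 2.97, 2.57 and 2.99 TPM and then 3.89, 4.47 and 4.95 TPM, and rose by 0.50 ± 0.11 on the log2 scale (SE, limma adjusted p 0.00671). Sel1l, the adaptor that steadies it, read 7.59, 5.12 and 6.51 TPM and then 2.74, 3.62 and 4.98 TPM, and fell by 0.64 ± 0.18 (SE, limma adjusted p 0.0267). Neither overlapped between groups, but the Sel1l call was lost without replicate 1 or replicate 3 of 0.2 mM (0.119 and 0.0803) and with no filter on low genes (0.0647). The ratio of Sel1l to Syvn1 ran from 1.99 to 2.55 at 0.2 mM and from 0.626 to 1.07 at 0.8 mM, a pair chosen after its values were seen.

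Derlins form part of the exit channel. Derl1 read 16.2, 16.7 and 20.2 TPM and then 14.3, 15.1 and 15.8 TPM. Every 0.8 mM library was lower, yet the limma adjusted p was 0.106, and it became 0.0302 with median-ratio and 0.0215 with quantile scaling. Derl2 averaged 22.3 ± 4.24 and 25.6 ± 3.66 TPM (SD, limma adjusted p 0.353). Derl3 was at or near 0, at 0.338, 0.396 and 0 TPM and then 0 to 1.67 TPM (limma adjusted p 0.207, and 0.0474 without replicate 5 of 0.8 mM). It met the minimum through 0.8 mM libraries alone.

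Edem1 and Os9, lectins that pick out misfolded glycoproteins, did not pass. Edem1 ran from 1.64 to 5.40 TPM at 0.2 mM, wider than its 2.87 to 4.34 TPM at 0.8 mM (limma adjusted p 0.55). Os9 averaged 9.67 ± 1.11 and 9.08 ± 1.36 TPM (SD, limma adjusted p 0.676). The row listed as Vimp carries the gene ID of Selenos, a selenoprotein of the exit complex (chromosome 7, 66079649 to 66089405), and read 25.9, 24.0 and 23.1 TPM and then 50.3, 53.2 and 55.1 TPM. Its groups did not overlap (log2 fold change 1.10 ± 0.07, SE, limma adjusted p 6.05e-07), and it is in none of the counts.

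Summed by role, the levels of most groups were higher at 0.8 mM. The chaperones summed to 272 ± 4.63 TPM at 0.2 mM and to 630.0 ± 16.3 TPM at 0.8 mM (SD, n = 3 and 6), a ratio of 2.32. The disulfide genes went from 405 ± 28.7 to 840.2 ± 30.4 TPM, a ratio of 2.07, and the translocation genes from 1611 ± 22.6 to 2494 ± 61.7 TPM, a ratio of 1.55. The prolyl isomerases stood at 321 ± 14.1 and 465 ± 17.2 TPM, a ratio of 1.45. Sensors and Xbp1 summed to 30.5 ± 0.18 and 42.4 ± 3.44 TPM, of which Xbp1 alone averaged 18.4 and 31.8 TPM. The degradation genes without Selenos stood at 103 ± 13.2 and 90.5 ± 5.33 TPM, a ratio of 0.878. Selenos alone averaged 24.3 and 53.1 TPM, so the direction of this sum depends on leaving it out. All 41 members together made 2743 ± 36.3 and 4562 ± 107 TPM of each library, and these sums have no test. A few abundant genes carry each sum: Sec61b, Sec61g, Spcs1 and Ssr4 lead the translocation genes.

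**Figure D4:**
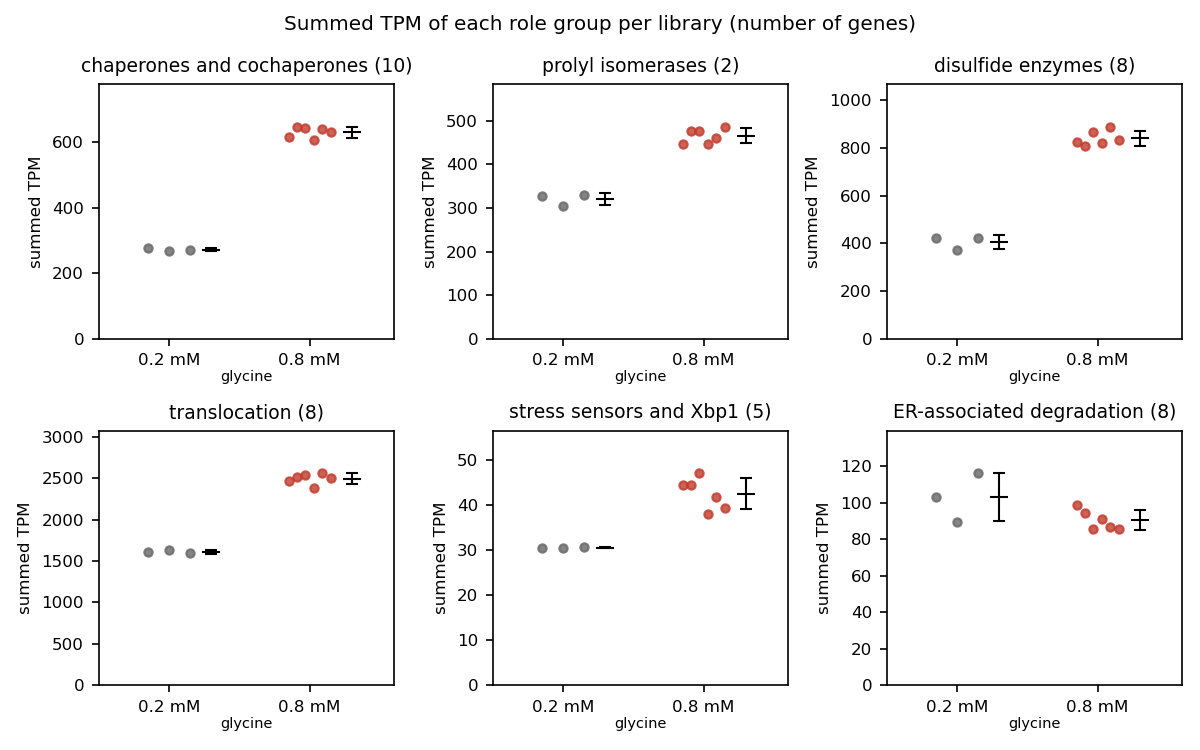
Summed TPM of each role group in each library (vertical axes, 1 panel a group); points are libraries and the black marks are means with SD. The 0.8 mM libraries lie above all 0.2 mM libraries for chaperones (606.7 to 646 against 267 to 277 TPM), prolyl isomerases, disulfide enzymes, translocation genes and the sensors with Xbp1, and the degradation genes overlap.

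The coefficient of variation of a tested member among the 0.8 mM libraries ran from 2.21% (Sec61b) to 69.6% (Derl3), with a median of 7.48%. The widest after Derl3 were Hyou1 (36.6%), Sel1l (25.5%) and Ern1 (25.04%), all low in TPM.

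Other ER genes, on lists that share no gene with the members, were read the same way with 1 exception. Ufd1, a degradation gene found only by its gene ID and listed as Ufd1l, is counted here, unlike Selenos among the members. Of 103 tested 29 (28.2%) rose and 13 (12.6%) fell, with a median log2 fold change of 0.18. Among all genes tested 16.7% rose and 9.81% fell, so the share that fell was near that of all genes. Those shares of all genes are the ones to set beside each list below. Among the other entry genes (signal recognition particle, translocon and signal peptidase) 7 of 17 rose and none fell (8 higher and 0 lower at an unadjusted p under 0.05 by limma). Tram1, a membrane protein next to the channel, averaged 24.6 ± 3.38 and 57.5 ± 7.86 TPM (SD, limma adjusted p 4.25e-05). Sec11c and Spcs2, of the signal peptidase, and Srp9, of the recognition particle, rose by 0.58, 0.36 and 0.26 on the log2 scale (limma adjusted p 0.00176, 0.00657 and 0.00878). The Srp9 call was lost under median-ratio and quantile scaling (adjusted p 0.0699 and 0.0659).

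The oligosaccharyltransferase, which attaches glycans to entering proteins, had 7 of 12 genes rising and 1 falling. Ost4 read 99.4, 85.4 and 91.5 TPM and then 225 to 236 TPM (log2 fold change 1.32, limma adjusted p 4.93e-08). Ostc averaged 49.2 ± 6.30 and 134 ± 5.01 TPM (log2 fold change 1.44, limma adjusted p 3.29e-07), and Rpn1 12.1 ± 1.84 and 22.7 ± 0.98 TPM (0.86, limma adjusted p 6.35e-05). Krtcap2, a further subunit, went the other way, at 397, 416 and 449 TPM and then 246 to 272 TPM, and fell by 0.68 on the log2 scale (limma adjusted p 4.86e-06).

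Among other folding enzymes and glycan-trimming genes 13 of 27 rose and 2, Txndc12 and Tmx3, fell. Erp29, a chaperone with a thioredoxin fold, averaged 41.1 ± 4.07 and 87.8 ± 1.98 TPM (SD, limma adjusted p 7.99e-07). The prolyl isomerases Fkbp7 and Fkbp11 rose by 1.51 and 1.25 on the log2 scale (limma adjusted p 4.23e-06 and 7.19e-06). Serpinh1, the collagen chaperone HSP47, averaged 118 ± 5.54 and 192 ± 12.1 TPM (limma adjusted p 1.84e-05).

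The ER membrane protein complex, which inserts membrane proteins, had none of 10 genes rising by limma, with 2 higher and 3 lower at an unadjusted p under 0.05. Emc4 averaged 109 ± 1.68 and 90.1 ± 6.88 TPM and fell by 0.27 on the log2 scale (limma adjusted p 0.0168), a call lost without replicate 1 or replicate 3 of 0.2 mM (0.0606 and 0.0516) and without the intensity trend (0.0545). The next by p, Emc6, Emc3 and Emc1, had limma adjusted p of 0.0538, 0.0611 and 0.109. Emc6, lower at 0.8 mM, passed in 7 alternatives, among them median-ratio and quantile scaling (0.012 and 0.0105) and leaving out replicate 2 or 6 of 0.8 mM (0.0352 and 0.0411). Emc3, higher at 0.8 mM, passed in 3, among them leaving out replicate 2 of 0.2 mM (0.0474). Of the other degradation genes 2 of 20 rose and 1 fell, 10.0% and 5.00% of them, both below the 16.7% and 9.81% of all genes tested. Vcp, the ATPase that pulls proteins out of the membrane, averaged 29.3 ± 1.54 and 37.0 ± 1.99 TPM (limma adjusted p 0.00609). Ubxn4 rose by 0.30 and Herpud2 fell by 0.42 on the log2 scale (limma adjusted p 0.0346 and 0.045). Ubxn4 lost its call under median-ratio and quantile scaling (0.124 and 0.127). With 1 library left out, Ubxn4 kept its call only without replicate 2 or 4 of 0.8 mM (adjusted p otherwise up to 0.14), and Herpud2 only without replicate 2 of 0.2 mM or replicate 2 or 6 of 0.8 mM (otherwise up to 0.155). Aup1, with a log2 fold change of -0.29, did not pass (0.0541), but did in 7 alternatives, among them median-ratio and quantile scaling (0.021 and 0.0159) and leaving out replicate 1 of 0.8 mM (0.0184).

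Of the other transducers and outputs of the stress response 8 of 17 fell and none rose by limma, with a median log2 fold change of -0.45 and 1 gene higher at an unadjusted p under 0.05. Ddit3, the factor CHOP that is induced downstream of PERK, read 167, 158 and 187 TPM at 0.2 mM and 18.4, 27.6 and 32.0 TPM at 0.8 mM, with no overlap, and fell by 2.67 on the log2 scale (limma adjusted p 3.89e-07). Ppp1r15a, the phosphatase subunit GADD34 that restores translation, averaged 18.3 ± 0.17 and 4.31 ± 0.51 TPM (limma adjusted p 4.46e-07). Atf3 averaged 24.7 ± 1.303 and 6.56 ± 0.66 TPM and Nupr1 221 ± 3.66 and 89.9 ± 8.39 TPM (limma adjusted p 4.82e-07 and 6.54e-07). The others that fell were Atf4, Trib3, Chac1 and Tmbim6. The TPM of Hspa5 was 0.279 to 0.353 of that of Ddit3 in the 0.2 mM libraries and 3.12 to 5.52 times it in the 0.8 mM libraries, a pair chosen after its values were seen.

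**Figure D5:**
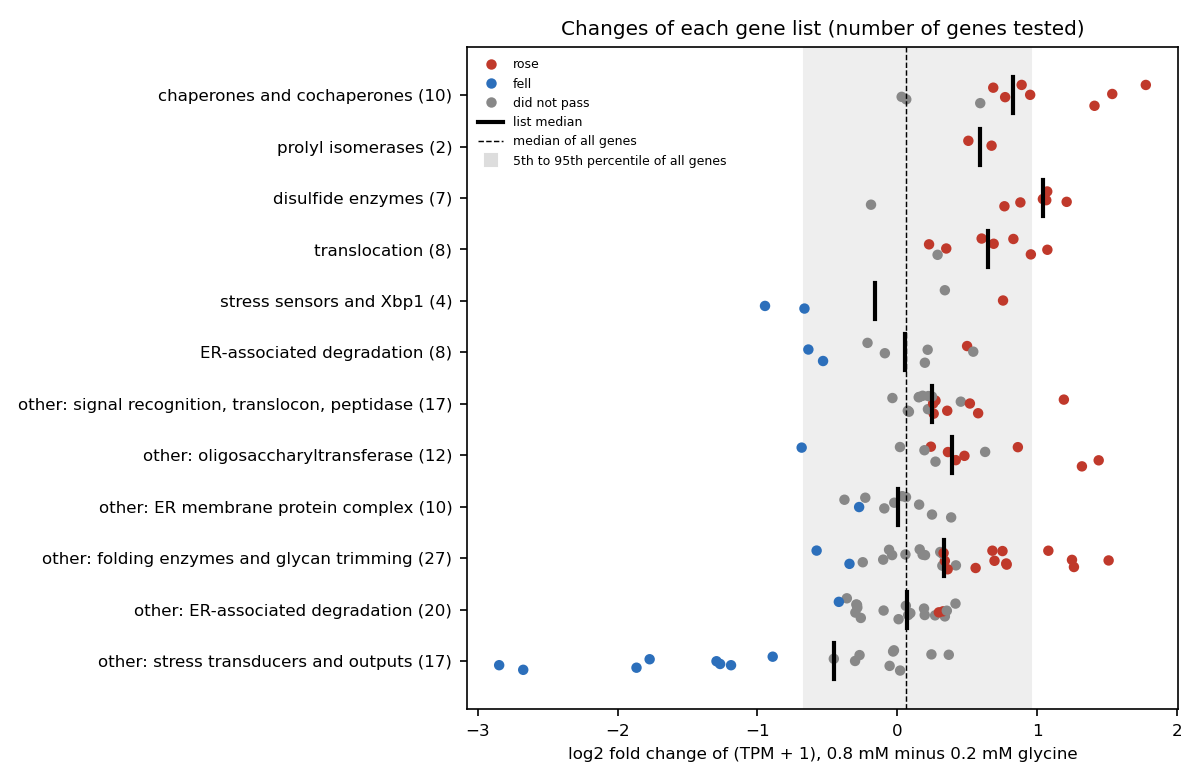
Log2 fold change (horizontal axis, log2(TPM + 1), 0.8 minus 0.2 mM) of each tested gene by list, members and other ER genes; each point is a gene, coloured by whether it rose, fell or did not pass, black bars are list medians, and the grey band spans the 5th to 95th percentile of all genes. The disulfide list has a median of 1.04, and the list of other stress transducers and outputs has a median of -0.45.

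Markers of the cell types that such a culture could hold also differed between the glycine levels. For comparison, 16.7% of all genes tested rose and 9.81% fell. Of 9 myoblast markers 7 rose and 1 (Vcam1) fell, and their summed level was 443 to 509.5 TPM at 0.2 mM and 929 to 1153 TPM at 0.8 mM. Myod1 averaged 35.7 and 69.3 TPM and Myog, a differentiation factor, 247 and 523 TPM. The fibroblast list summed to 2311 to 2691 and 2718 to 3288 TPM, with 7 of 10 rising, and Dcn, at 1878 and 1689 TPM, was its most abundant gene. The macrophage and leukocyte list summed to 839 to 924 and 1006 to 1393 TPM, with 3 of 10 tested rising (Lyz2, Cd14 and Itgam) and 2 falling (Cd68 and Fcgr3). Lyz2 alone, at 588 and 1013 TPM on average, carried that sum upward. Cd68 averaged 182 and 57.6 TPM and Fcgr3 39.7 and 20.0 TPM, so the list did not move as a whole. The T cell marker Cd3e was at 0 in all 0.2 mM libraries and in all 0.8 mM libraries but replicate 1, at 0.134 TPM. Endothelial markers summed to 11.2 to 12.1 and 20.2 to 29.7 TPM, and pericyte and smooth muscle markers to 4.62 to 5.67 and 7.83 to 9.46 TPM. Of these, all 4 tested endothelial markers and 1 of 2 pericyte markers rose. Pax7, which did not pass, and Itgam, Pi16, Pecam1, Cdh5 and Cspg4 met the minimum for a test through 0.8 mM libraries alone. The part of these cell types in the members' values was not tested.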

How the data were processed

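RNA of mouse primary myoblasts was sequenced in 9 libraries, 3 at 0.2 mM and 6 at 0.8 mM glycine, grouped by their titles. The authors deposited 1 table of TPM per gene, in which each library sums to 1000000. Per the submitters' processing notes, HISAT2 2.0.5, StringTie 1.3.3, DESeq2 and the build mm10 were used, while the sources used here give no settings, annotation release or strand use. TPM keeps no read number, so depth is unknown and precision was taken from the spread between libraries. Between 8979 and 9457 genes reached 1 TPM in a library.

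Genes of at least 1 TPM in 3 libraries (10049) were tested on log2(TPM + 1) with limma 3.58.1 in R 4.3.3, with an intensity trend, two-sided, with Benjamini-Hochberg adjustment over all of them and a threshold of 0.05. Positions and overlapping exons were read from GENCODE mouse release 21 (GRCm38), and promoter windows from RefSeq on GRCm38.p6, which held 36 of the 42 members. Tables and plots were made with Python 3.11.15, pandas 2.3.3 and matplotlib 3.10.9.

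Every member is named. Up to 4 members of each role group with the smallest p, and Hspa5, Xbp1, Ern1, Atf6 and Eif2ak3 whatever their result, have their values given in full, and up to 4 genes of each list of other ER genes are named with values. Further names were added after their values were seen: Txndc12, Tmx3, Atf4, Trib3, Chac1 and Tmbim6, which fell, and the markers. Ufd1 is named for the way it was found. The members and lists were chosen with earlier results of these data known. Alternatives were other pseudocounts, filters, scalings, limma settings, a fold threshold, a replicate block and leaving out each library. Protein C termini were planned and are not analysed here.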

Additional observations from a re-analysis of the deposited data

Results flagged for a closer look

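Of 66 genes examined, 4 had 1 library far from the others of the 0.8 mM group, and chance alone flags about 1 group in 20. Ero1lb was at 0.360 TPM in replicate 3, and its other 5 libraries ran from 0.656 to 0.825 TPM. Ssr2, of the translocon-associated complex, was at 142 TPM in replicate 6 against 125 to 129.9 TPM in the others. Spcs2, of the signal peptidase, was at 43.2 TPM in replicate 4 against 46.5 to 47.8 TPM. Atf3, a stress transcription factor, was at 5.31 TPM in replicate 1 against 6.44 to 7.11 TPM. These 4 values came from 4 different libraries.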

How the results depend on the processing

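The library series and the glycine level cannot be told apart, and depth is unknown, so counting error could not be computed. Under 24 alternatives, 21 of the 28 members that passed kept their direction and their side of the threshold in each alternative that tested them, as did 14 of 24 named other ER genes. Of these, Ern1 and Emc1 were not tested under the filter at a mean of 5 TPM. The members that rose numbered 24 and ran from 20 (with a 1.5-fold threshold) to 25. A filter at a mean of 5 TPM, which tested 32 members, left 1 that fell. Leaving out each library in turn gave 23 to 25 that rose, 3 to 4 that fell, and 2063 to 2559 genes that passed, against 2669. A 1.5-fold threshold left 1636 genes. For genes that did not pass, the sign of the log2 fold change turned for Canx (-0.018 with median-ratio scaling, -0.034 with quantile scaling, -0.006 without replicate 2 of 0.2 mM), Dnajb9 (-0.046, -0.055 and -0.027 in the same order, -0.003 without ribosomal RNA genes and -0.007 without the 10 most abundant genes) and Edem1 (-0.088 without replicate 2 of 0.2 mM). Leaving out each library gave ranges of -0.006 to 0.126 for Canx, -0.027 to 0.111 for Dnajb9 and -0.088 to 0.550 for Edem1. The cause was not tested.

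The labels do not say whether the replicate numbers 1 to 3 pair the samples. Deviations of same-numbered libraries correlated at 0.023 to 0.081, and of differently numbered ones at -0.104 to 0.080. So few same-numbered pairs cannot decide whether the numbers pair the samples. With the number as a replicate block, in libraries 1 to 3 of each level, 1713 genes passed, and 22 members rose and 2 fell. Calls lost under the block were those of the members Atf6, Herpud1, Syvn1 and Ssr4 (limma adjusted p 0.0577, 0.0741, 0.131 and 0.162) and of the named other ER genes Spcs2, Srp9, Vcp, Emc4, Ubxn4 and Herpud2 (0.0616, 0.0714, 0.0946, 0.146, 0.184 and 0.235). Syvn1 also lost its call in those libraries without the block (0.0777). Os9 turned to 0.016, as it did in those libraries without the block (0.016).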

Other observations

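ERSE was also searched in the promoter windows of all genes other than the members. It was found in 27 other genes, of which 3 were tested. The others either fell below the minimum or were not found by symbol and so have no TPM here. Spats2l averaged 5.45 TPM at 0.2 mM and 10.4 TPM at 0.8 mM and rose by 0.80 on the log2 scale (limma adjusted p 0.0396). Hnrnpa3 and Zfp57 did not pass. Among members that hold ERSE 7 of 9 tested rose, among all tested members 24 of 39 did, and among all genes tested 16.7% did. Whether ERSE bears on the change was not tested.

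The TPM of Xbp1 was 3.80 to 5.81 times that of Ern1, whose product splices its mRNA, in the 0.2 mM libraries and 17.4 to 35.1 times in the 0.8 mM libraries. The TPM of Sec61b was 13.8 to 21.1 times that of Sec61a1 at 0.2 mM and 20.2 to 26.8 times at 0.8 mM, and these ranges overlap. Both pairs were picked with these values in view and carry no test.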
